A study of Mus musculus with 17 samples.

Results

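The 9 genes described here make, break down, bind and sense retinoic acid in newborn mice: Aldh1a1, Aldh1a2 and Aldh1a3 (synthesis), Cyp26b1 (breakdown), Rara, Rarb and Rarg (receptors), and Crabp1 and Crabp2 (binding proteins). They were taken by name from a deposited table of 55359 genes, in which each gene is given by an Ensembl identifier that was matched to the GENCODE mouse annotation, and all 9 were found. RNA was sequenced from whole testes and from brain of male pups of postnatal day 1, on a 129/SvEv background, in 3 genotypes of Osteocalcin (Ocn), a gene encoding a hormone made by bone. WT pups were born from WT mothers, whereas Ocn+/- pups and Ocn-/- pups (the Ocn-GK strain, a deletion made by homologous recombination in embryonic stem cells) were both born from Ocn-/- mothers according to the study's methods, so the genotype of the pup, that of its mother and its litter cannot be told apart in any comparison with WT. Testes were represented by 2 WT, 3 Ocn+/- and 3 Ocn-/- libraries and brain by 3 libraries of each genotype, 17 in all. The brain tissue is named hippocampus in the sample labels and forebrain by the study, and it is called forebrain here because the striatal marker Drd1 was present in every library (10.3 to 30.1 counts per 1000000 counts).

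Retinoic acid is made from vitamin A in successive steps: retinol is oxidized to retinaldehyde by alcohol and retinol dehydrogenases, and retinaldehyde is then oxidized irreversibly to retinoic acid by the ALDH1A enzymes. The acid enters the nucleus with the help of CRABP2, binds RARα, RARβ or RARγ paired with an RXR, and changes transcription of genes that carry a retinoic acid response element; CYP26 enzymes oxidize and inactivate it. In the fetal and newborn testis CYP26B1, made mainly by somatic cells, keeps germ cells from retinoic acid and from entering meiosis, and in the newborn forebrain retinoic acid comes mostly from the meninges (Aldh1a2) and the developing striatum (Aldh1a3), the latter also a site of Rarb expression.

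A response element of the kind bound by RAR and RXR is a direct repeat of a 6-base half-site with a spacer of 5 bases, called DR5. The half-sites searched were AGGTCA and its variant AGTTCA, as well as GGGTCA and its variant GGTTCA, repeated in the same direction with 5 bases between them, on both strands, from 250 bases before to 50 bases after each annotated start site. Among the canonical start sites of 21770 genes, 12 (0.055%) held a match. Of 81 annotated start sites of the 9 genes, 5 held one, all of them start sites of Rarb and all sharing a single repeat, which also lies inside exons of other annotated Rarb transcripts; no canonical start site of the 9 genes held a match, and none of the 81 held a repeat with a spacer of 2 bases. The Rarb repeat, and for comparison that of Cyp26a1 (another retinoic acid hydroxylase, which has it at its canonical start site), are shown on GRCm39 in the direction of the gene with the half-sites in capitals, because they are the places where a receptor gene and a breakdown gene carry the letters the receptors bind.
Rarb, chr14:5894228-5894256, plus strand: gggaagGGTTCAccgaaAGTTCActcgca
Cyp26a1, chr19:37686218-37686246, plus strand: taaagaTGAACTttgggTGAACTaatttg
The Cyp26a1 half-sites read AGTTCA on the opposite strand. A match describes letters only, and its absence from these windows says nothing about binding elsewhere.

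Depth was 7302401 to 8289015 counts per library in testes and 6518151 to 14621584 in forebrain. Levels are given as counts per 1000000 (CPM) after TMM scaling within an organ, and differences as log2 fold changes with their standard error (SE) from edgeR's quasi-likelihood test, with Benjamini-Hochberg adjusted p-values computed over every gene of the organ that passed the count filter; all 9 genes passed in both organs, and a gene is said to rise or fall where the adjusted p was under 0.05. The labels do not say whether replicates came from separate litters, so p-values measure the spread between these libraries. Both mutant comparisons of an organ share their WT libraries. Where mutant libraries are said to lie all above or all below WT, this describes the libraries and carries no test. The share of all tested genes that separate in this way was not counted. The targeted locus gave almost no reads in any library (Bglap at 0 to 2 counts in testes and 0 to 5 in forebrain, Bglap2 at 0 in all), so it could not be used to check the genotype labels. One forebrain library, WT replicate 3, stood apart from the others, with 8.503% of its counts from the ribosomal RNA gene Rn18s-rs5 against at most 0.8051% in the other 16 libraries and with the lowest depth. In testes, Ocn-/- replicate 3 was lowest for Lum, a gene of connective tissue, at 47.3 CPM against 119 to 253 in the other 7 testes libraries.

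The 9 genes had different orders of abundance in the 2 organs. Divided by the length of the canonical transcript, which allows genes to be compared, the mean level over the 8 testes libraries was highest for Aldh1a1, at 139 CPM per kb (lowest library 97.4, highest 205). Cyp26b1 at 29.2, Rara at 23.5 and Aldh1a2 at 20.4 CPM per kb followed, and their ranges overlapped. Crabp1 at 5.49, Crabp2 at 4.07, Rarg at 3.41 and Aldh1a3 at 2.698 CPM per kb formed a lower group in which each overlapped the next. Rarb was last at 0.573 CPM per kb, and its highest library (0.931) lay below the lowest library of its neighbour Aldh1a3 (1.89) but above the lowest library of Crabp2 (0.609). Aldh1a1 therefore stood above the other synthesis enzymes, and Rara above the other receptors, in every testes library.

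In forebrain the order began with Crabp1, a cytoplasmic binding protein that passes retinoic acid on to breakdown, at 24.5 CPM per kb (range over 9 libraries 18.8 to 36.8). Aldh1a2 at 8.24 and Cyp26b1 at 8.15 CPM per kb came next and overlapped. Rara at 5.65, Crabp2 at 5.03 and Rarb at 4.83 CPM per kb overlapped one another, and the highest Rara library (6.89) lay below the lowest Cyp26b1 library (7.53). Rarg at 1.80, Aldh1a3 at 0.756 and Aldh1a1 at 0.647 CPM per kb were lowest, and the ranges of Aldh1a3 and Aldh1a1 overlapped almost entirely. The length used for Aldh1a1 was 6202 bases, and its annotated transcripts with a consensus coding sequence run from 4142 to 6202 bases. Its level per length would be higher with a shorter form, and its place below Aldh1a3 in forebrain depends on the length used.

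**Figure D1:**
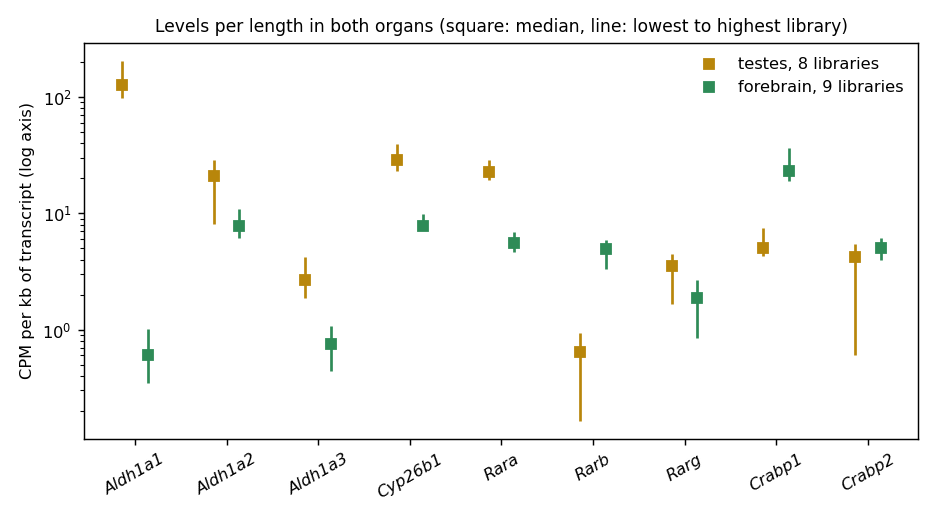
Level of each retinoic acid gene per length of transcript (CPM per kb, log axis) in testes (8 libraries) and forebrain (9 libraries); the square is the median and the line runs from the lowest to the highest library, all genotypes together. With canonical transcript lengths Aldh1a1 stands highest in testes and lowest in forebrain, while Rarb and Crabp1 are higher in forebrain than in testes.

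Between the organs 8 of the 9 genes differed in a joint fit of all 17 libraries, where 84.4% of all tested genes did, a share close to that of the 9. Aldh1a1 was higher in testes by 7.80 on the log2 scale (SE 0.116, adjusted p = 4.57e-24). Rara (2.03), Aldh1a3 (1.90), Cyp26b1 (1.82), Aldh1a2 (1.31) and Rarg (0.91) were also higher in testes. Rarb, at -3.06 (SE 0.219), and Crabp1, at -2.20 (SE 0.134), were higher in forebrain. Crabp2, the nuclear carrier of retinoic acid, differed by -0.30 (95% interval -0.75 to 0.15, adjusted p = 0.229), and by 0.0191, in the other direction, with scaling to library size only.

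The shares of the members within each family differed between the 2 organs, although Rara had the largest mean share of the receptors in both. Of the summed ALDH1A level per length in WT testes, Aldh1a1 made up 88.4% ± 2.90 (SD, n = 2) and Aldh1a2 10.1%, whereas in WT forebrain Aldh1a2 made up 89.1% ± 1.48 (SD, n = 3) and Aldh1a1 4.81%. Rara was 85.4% of the receptor level in WT testes, and in WT forebrain Rara at 50.1% and Rarb at 40.0% shared it. In Ocn-/- forebrain they were near equal, Rara at 42.3% ± 3.50 and Rarb at 41.2% ± 4.12 (SD, n = 3). Both binding proteins were near equal in WT testes (Crabp1 at 48.1%), and Crabp1 was 80.8% of their sum in WT forebrain. These shares are descriptions of bulk tissue, in which fewer cells of a type and less RNA per cell cannot be told apart.

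In testes the synthesis enzyme Aldh1a1 fell in both mutant genotypes. This gene, at chr19:20469539-20622825 on the plus strand (ENSMUSG00000053279.10), encodes a cytosolic retinaldehyde dehydrogenase and was the only one of the 9 that changed in Ocn+/- or Ocn-/- testes against WT, where 8.25% and 5.64% of all tested genes did. It stood at 1433 and 1334 CPM in the WT libraries. In the Ocn+/- libraries it stood at 780, 684 and 689 CPM, and in the Ocn-/- libraries at 852, 1093 and 907 CPM. All 6 mutant libraries lay below both WT libraries, and the highest Ocn+/- library lay below the lowest Ocn-/- library. WT libraries averaged 1383 ± 70.0 CPM (SD, n = 2). The Ocn+/- mean was 717 ± 54.0 CPM and the Ocn-/- mean 951 ± 127 CPM (SD, n = 3 each). Against WT, Aldh1a1 fell by 0.95 on the log2 scale in Ocn+/- testes (SE 0.129, adjusted p = 0.000608) and by 0.54 in Ocn-/- testes (SE 0.129, adjusted p = 0.0235).

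The fall in Ocn+/- testes kept an adjusted p of at most 0.0193 when any single testes library was left out. That in Ocn-/- testes lost its call without WT replicate 1 (-0.48, adjusted p = 0.181), WT replicate 2 (-0.57, 0.201), Ocn-/- replicate 1 (-0.45, 0.0986) or Ocn-/- replicate 3 (-0.51, 0.06), where a lone WT library is assumed to vary like the other groups. Between the mutants, which share the genotype of the mother, Aldh1a1 was 0.41 higher in Ocn-/- than in Ocn+/- testes (SE 0.117, 95% interval 0.18 to 0.64) at an adjusted p of 0.283. None of the 9 genes was called in that comparison and none of all tested genes was (0%), although 1881 genes had an unadjusted p under 0.05 and DESeq2 called 76, Aldh1a1 among them (0.42, adjusted p = 0.0487). The differences of the other 8 genes between the mutant testes were 0.28 for Cyp26b1, 0.0306 for Aldh1a3, -0.0565 for Rara, -0.50 for Crabp2, -0.51 for Aldh1a2, -0.55 for Crabp1, -0.59 for Rarg and -0.67 for Rarb, with adjusted p from 0.406 to 0.973.

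Aldh1a1 has a close neighbour, Aldh1a7, on the opposite strand of the same chromosome, whose reads could be mistaken for its own. Their coding sequences are 1503 bases each and differ at 126 positions (91.6% identical). A stretch of 60 coding bases (319 to 378, counted from the first base of the start codon) where 16 bases differ is shown in the direction of each gene, with the differing bases in capitals, because such stretches are what separates the reads of the 2 genes.
Aldh1a1, chr19:20597339-20597398, plus strand: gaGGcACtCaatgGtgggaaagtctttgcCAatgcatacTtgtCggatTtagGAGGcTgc
Aldh1a7, chr19:20696614-20696673, minus strand: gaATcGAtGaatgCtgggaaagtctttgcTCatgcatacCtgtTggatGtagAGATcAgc
Of the 50-base stretches of the canonical Aldh1a1 transcript, 2.455% also occur in Aldh1a7. Aldh1a7 stood at 33.7 and 27.3 CPM in WT, 16.6, 18.3 and 17.7 CPM in Ocn+/- and 18.3, 22.6 and 9.35 CPM in Ocn-/- testes. It too lay below WT in all 6 mutant libraries, but did not pass the test in Ocn+/- (log2 -0.80, adjusted p = 0.0801) or in Ocn-/- testes (-0.86, adjusted p = 0.0742). With the counts of both genes summed (chosen after seeing the data), the log2 differences were -0.94 in Ocn+/- and -0.55 in Ocn-/- testes (adjusted p = 0.000645 and 0.0224).

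**Figure D2:**
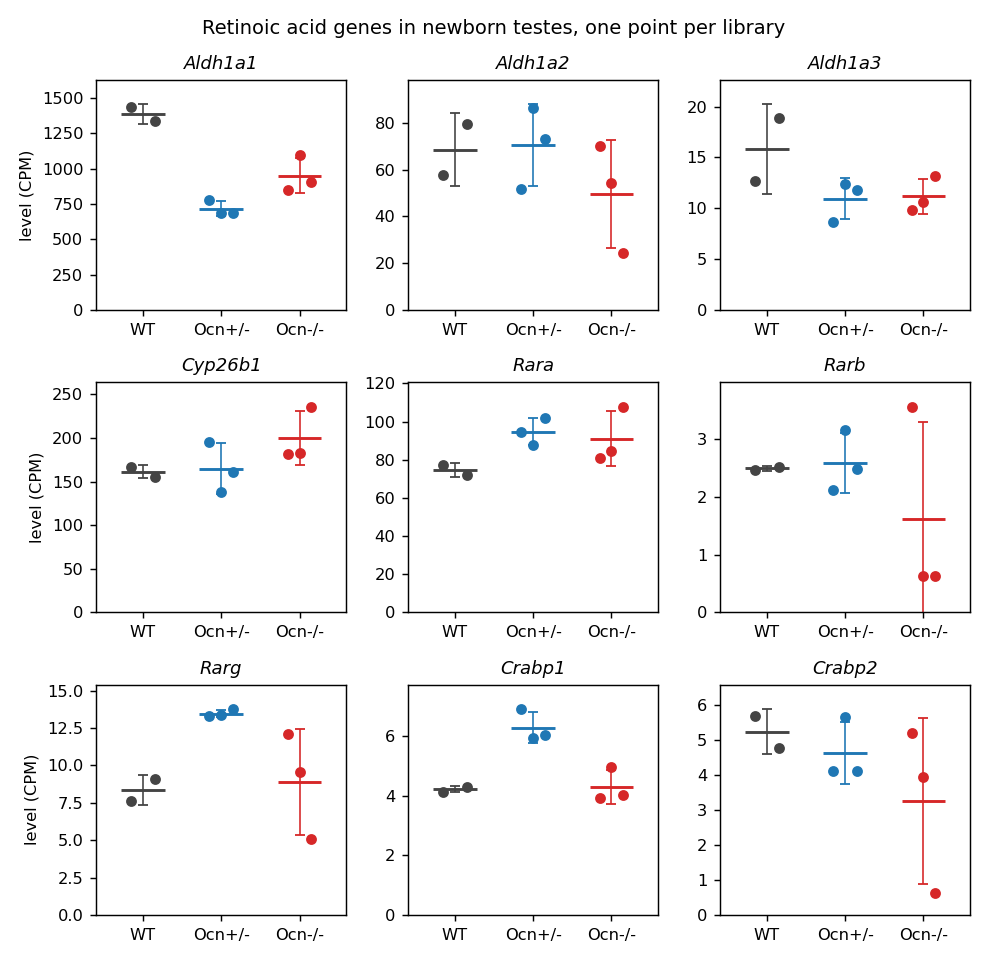
Level (CPM, linear axes from 0) of the 9 genes in each testes library, by genotype; the horizontal line is the mean and the bar 1 SD (2 WT, 3 Ocn+/- and 3 Ocn-/- libraries). All 6 mutant libraries lie below both WT libraries for Aldh1a1 and above both for Rara, and a single Ocn-/- library is low for Aldh1a2, Crabp2 and Rarg.

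The other synthesis enzymes did not pass the test in testes. Aldh1a3 (chr7:66040638-66077850, minus strand) stood at 12.7 and 18.9 CPM in WT, 8.63, 12.4 and 11.8 CPM in Ocn+/- and 9.84, 10.6 and 13.1 CPM in Ocn-/- testes. The Ocn+/- libraries lay below WT and the Ocn-/- libraries overlapped it, with log2 differences of -0.53 (SE 0.248, adjusted p = 0.187) and -0.50 (SE 0.247, adjusted p = 0.239). Both depended on the higher WT library: without WT replicate 2 they were -0.20 and -0.16, and without WT replicate 1 they were -0.78 and -0.75. Aldh1a2 (chr9:71122630-71203527, plus strand) stood at 57.7 and 79.5 CPM in WT, 51.8, 86.3 and 73.3 CPM in Ocn+/- and 70.2, 54.2 and 24.4 CPM in Ocn-/- testes. Both mutant groups overlapped WT, and the lowest value was that of Ocn-/- replicate 3. With Aldh1a1 so dominant, the summed ALDH1A level per length of WT testes was 252 ± 4.49 CPM per kb (SD, n = 2). That of Ocn+/- testes was 144 ± 3.06 and that of Ocn-/- testes 174 ± 21.6 CPM per kb (SD, n = 3 each), and the Aldh1a1 share of it was 80.0% ± 4.94 in Ocn+/- and 87.9% ± 4.73 in Ocn-/- testes.

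The breakdown enzyme Cyp26b1 (chr6:84548396-84570890, minus strand) stood at 166 and 156 CPM in WT testes, at 195, 138 and 161 CPM in Ocn+/- and at 182, 182 and 236 CPM in Ocn-/- testes. The Ocn+/- libraries overlapped WT (log2 0.03, 95% interval -0.27 to 0.33). The Ocn-/- libraries all lay above WT, by 0.31 (SE 0.154) at an adjusted p of 0.239, and by 0.18 without Ocn-/- replicate 3.

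Among the receptors, Rara (chr11:98818612-98865768, plus strand), the main RAR of the testis, stood at 77.4 and 72.2 CPM in WT, at 94.7, 87.7 and 102 CPM in Ocn+/- and at 81.1, 84.5 and 108 CPM in Ocn-/- testes. All 6 mutant libraries lay above both WT libraries, with log2 differences of 0.34 (SE 0.139, adjusted p = 0.132) and 0.28 (SE 0.139, adjusted p = 0.233) that did not pass the test. Without Ocn-/- replicate 3 the latter was 0.15. Rarg (chr15:102143373-102165952, minus strand) stood at 7.64 and 9.08 CPM in WT, 13.3, 13.4 and 13.8 CPM in Ocn+/- and 12.1, 9.56 and 5.05 CPM in Ocn-/- testes. Its Ocn+/- libraries lay together above WT (0.69, SE 0.299, adjusted p = 0.159), whereas its Ocn-/- libraries spread across WT (0.09, SE 0.301). Rarb (chr14:5650540-6041094, plus strand) was scarce, at 2.46 and 2.52 CPM in WT, 2.13, 3.15 and 2.48 CPM in Ocn+/- and 3.56, 0.637 and 0.632 CPM in Ocn-/- testes, between 5 and 29.55 counts in those last libraries. Top2b lies on the opposite strand within the span of Rarb, and strand use in counting is not given in the sources used here.

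The binding proteins were scarce in testes as well. Crabp1 (chr9:54671171-54680403, plus strand) stood at 4.15 and 4.29 CPM in WT, 6.91, 5.93 and 6.05 CPM in Ocn+/- and 3.91, 4.97 and 4.04 CPM in Ocn-/- testes. The Ocn+/- libraries lay above WT (log2 0.58, SE 0.311, adjusted p = 0.257) and the Ocn-/- libraries did not (0.03). Crabp2 (chr3:87855973-87860683, plus strand) stood at 5.70 and 4.79 CPM in WT, 4.12, 5.68 and 4.13 CPM in Ocn+/- and 5.22, 3.95 and 0.632 CPM in Ocn-/- testes, the last from 5 counts in replicate 3. That library was also lowest of the testes for Meis1, Meis2 and Nr2f1, and Aldh1a2, Crabp2 and Rarg were low in it together with Lum. Lum is 1 of 6 markers of meninges and fibroblasts, which summed to 5958 to 7527 CPM in WT, 7047 to 8183 in Ocn+/- and 4288 to 6884 in Ocn-/- testes. None of the 5 tested was called, and all 5 were lower in Ocn-/- than in WT testes (median log2 -0.39). The part of such tissue in the levels of these genes was not tested. Without Ocn-/- replicate 3 the log2 differences of Ocn-/- from WT testes were -0.14 for Aldh1a2, -0.19 for Crabp2 and 0.37 for Rarg, none of them called.

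Markers of other cells moved in the same testes. The summed level of 7 fetal Leydig cell markers was 1873 to 1985 CPM in WT, 910 to 1472 in Ocn+/- and 928 to 1368 in Ocn-/- testes, below WT in every mutant library, with 1 of the 7, Lhcgr (the luteinizing hormone receptor), called lower in both. Endothelial markers summed to 529 to 544 CPM in WT, 328 to 390 in Ocn+/- and 311 to 350 in Ocn-/- testes, with 3 and 5 of 5 called lower. Sertoli cell markers summed to 2786 to 3144, 2771 to 3447 and 2969 to 4150 CPM and overlapped between genotypes, and of 9 only Sox9 was called, higher in both. Macrophage markers summed to 58.9 to 60.4 CPM in WT, 69.1 to 100.3 in Ocn+/- and 40.4 to 70.5 in Ocn-/- testes, with Cd68 and Cx3cr1 of 5 called higher in Ocn+/-. Of 4 Wolffian duct markers, Lhx1 was called higher in both genotypes and Pax2 in Ocn+/- testes, and their sum was 26.4 to 39.9 CPM in WT, 38.5 to 50.6 in Ocn+/- and 22.7 to 39.1 in Ocn-/- testes. The adipocyte marker Fabp4 was called lower in both genotypes, while the 4 markers of its list summed to 23.1 to 24.9, 19.3 to 25.9 and 21.3 to 26.4 CPM. Erythroid markers summed to 1920 to 5026 CPM in WT, 634 to 2795 in Ocn+/- and 971 to 1850 in Ocn-/- testes, with median log2 differences of -1.15 and -1.46 and none of 4 called. Peritubular myoid and smooth muscle markers summed to 901 to 1115, 773 to 981 and 662 to 870 CPM, with medians of -0.30 and -0.44 and none of 5 called. None of the markers of these lists was at 0 in testes, and their part in the lower Aldh1a1 was not tested.

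**Figure D3:**
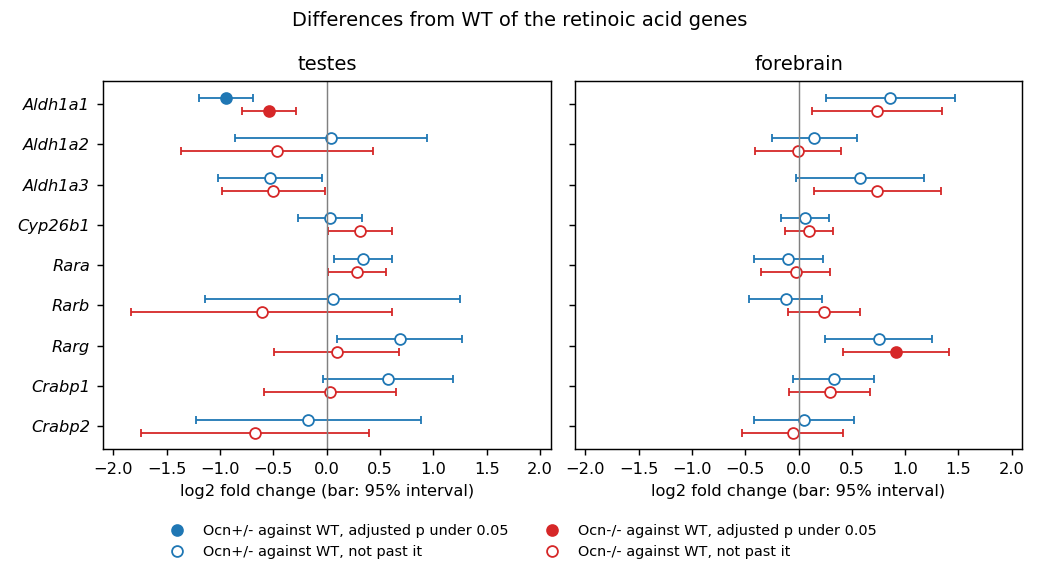
Log2 fold change against WT of the 9 genes in testes (left) and forebrain (right), for Ocn+/- (blue) and Ocn-/- (red). Bars are 95% intervals from the normal distribution, narrower than the test would give, and filled points have an adjusted p under 0.05. Filled points are Aldh1a1 in both mutant testes and Rarg in Ocn-/- forebrain.

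In forebrain the pattern was another one. The receptor Rarg rose in Ocn-/- pups and was the only one of the 9 genes called there, where 4.85% of all tested genes were; none was called in Ocn+/- forebrain, where 3.89% of all tested genes were. Rarg stood at 3.58, 2.07 and 2.85 CPM in WT, at 4.80, 5.19 and 4.64 CPM in Ocn+/- and at 6.47, 4.55 and 5.34 CPM in Ocn-/- forebrain. All 6 mutant libraries lay above the 3 WT libraries. The log2 difference was 0.91 in Ocn-/- (SE 0.255, adjusted p = 0.0439) and 0.75 in Ocn+/- forebrain (SE 0.256, adjusted p = 0.099), on 16 to 81 counts per library.

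The call for Rarg was close to the threshold. It was lost without WT replicate 2 (0.73, adjusted p = 0.163), WT replicate 3 (0.91, 0.13), Ocn-/- replicate 1 (0.78, 0.14), replicate 2 (1.03, 0.0629) or replicate 3 (0.93, 0.0588), and without Ocn+/- replicate 2 (0.92, 0.0553) or replicate 3 (0.92, 0.0543). Endothelial markers summed to 126 to 155 CPM in WT, 105 to 132 in Ocn+/- and 97.1 to 139.6 in Ocn-/- forebrain. Of these 5, Kdr was called lower in both genotypes and Pecam1 in Ocn+/- pups. Microglia markers summed to 49.1 to 62.3, 55.9 to 72.8 and 56.9 to 68.9 CPM, with Cx3cr1 of 5 called higher in both. Erythroid markers summed to 388 to 525, 272 to 317 and 362 to 421 CPM. Of these 4, Hba-a1 and Hbb-bs were called lower in Ocn+/- and Slc4a1 in Ocn-/- pups. Choroid plexus markers summed to 23.2 to 30.4, 20.8 to 30.4 and 16.5 to 22.4 CPM, with none of 5 called. Their part in the level of Rarg was not tested. Between Ocn-/- and Ocn+/- forebrain Rarg differed by 0.16 (95% interval -0.29 to 0.61), and none of the 9 genes was called in that comparison, where 0.00622% of all tested genes (1 gene) was and 515 had an unadjusted p under 0.05. The other 8 genes lay between -0.16 (Aldh1a2) and 0.36 (Rarb) in it.

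Aldh1a1 and Aldh1a3, which are scarce in forebrain, lay above WT there. Aldh1a1 stood at 2.75, 1.96 and 2.49 CPM in WT, 5.48, 4.34 and 3.36 CPM in Ocn+/- and 3.35, 3.01 and 5.72 CPM in Ocn-/- forebrain. Aldh1a3 stood at 1.91, 1.61 and 2.49 CPM in WT, 2.57, 2.71 and 3.49 CPM in Ocn+/- and 3.11, 2.81 and 3.91 CPM in Ocn-/- forebrain. For both genes every mutant library was above every WT library, but neither passed the test: the log2 differences of Aldh1a1 were 0.86 (adjusted p = 0.116) and 0.73 (adjusted p = 0.173), the latter 0.40 without Ocn-/- replicate 3, and those of Aldh1a3 were 0.58 (adjusted p = 0.298) and 0.74 (adjusted p = 0.163). Markers of the olfactory bulb summed to 28.4 to 32.0 CPM in WT, 96.5 to 123 in Ocn+/- and 23.4 to 79.9 in Ocn-/- forebrain. None of the 4 was called in either genotype, and in each 3 were higher and 1 lower than WT. Markers of midbrain dopamine neurons, a cell type known for Aldh1a1, summed to 2.36 to 3.56 CPM in WT, 5.50 to 7.19 in Ocn+/- and 1.28 to 4.29 in Ocn-/- forebrain. Of these 4 only Th passed the count filter (log2 1.37 and 0.37, not called). The part of both lists in these genes was not tested.

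Aldh1a2, the main synthesis enzyme of the forebrain, stood at 17.7, 18.8 and 22.1 CPM in WT, 18.6, 19.1 and 26.5 CPM in Ocn+/- and 15.01, 16.3 and 26.4 CPM in Ocn-/- forebrain. The groups overlapped, with log2 differences of 0.15 (95% interval -0.25 to 0.55) and -0.01 (-0.41 to 0.40). Markers of meninges and fibroblasts summed to 316 to 369 CPM in WT, 269 to 349 in Ocn+/- and 192 to 372 in Ocn-/- forebrain. None of the 6 was called, with a median difference of -0.13 in Ocn+/- and -0.36 in Ocn-/- pups, and their part in the level of Aldh1a2 was not tested.

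Cyp26b1 had the smallest standard error of the 9 in forebrain. It lay at 36.3 to 41.0 CPM in WT, 37.3 to 41.5 in Ocn+/- and 36.8 to 47.1 in Ocn-/- pups, with log2 differences of 0.06 and 0.10 (SE 0.115 each). Rara lay at 15.3 to 20.6, 13.7 to 20.3 and 15.5 to 18.7 CPM in WT, Ocn+/- and Ocn-/- forebrain. Rarb stood at 14.64, 15.3 and 12.6 CPM in WT, 10.01, 17.1 and 12.5 CPM in Ocn+/- and 17.3, 18.0 and 15.4 CPM in Ocn-/- forebrain. Its Ocn-/- libraries lay narrowly above WT (0.24, 95% interval -0.10 to 0.58, adjusted p = 0.444). Of 7 markers of the striatum, where Rarb is expressed, 1 was called higher in Ocn-/- forebrain: Drd1, at 10.3 to 15.7 CPM in WT and 22.0 to 30.1 CPM in Ocn-/- libraries. The 7 summed to 456 to 494 CPM in WT, 353 to 492 in Ocn+/- and 428 to 492 in Ocn-/- forebrain, and their part in the level of Rarb was not tested.

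Crabp1 stood at 15.8, 16.5 and 13.7 CPM in WT, 14.3, 26.8 and 17.3 CPM in Ocn+/- and 16.7, 20.97 and 18.97 CPM in Ocn-/- forebrain (log2 0.33 and 0.29, adjusted p = 0.356 and 0.403). Without Ocn+/- replicate 2, the highest library, the first was 0.0346. Crabp2 lay at 3.34 to 5.11, 3.79 to 4.70 and 3.84 to 4.23 CPM, overlapping in all 3 genotypes. Over the 9 genes the median log2 difference in forebrain was 0.15 in Ocn+/- and 0.24 in Ocn-/- pups, and in testes 0.04 in Ocn+/- and -0.47 in Ocn-/- pups, beside medians over all tested genes between -0.00638 and 0.00658. The Ocn-/- testes median was -0.14 without Ocn-/- replicate 3, -0.16 without WT replicate 2 and -0.24 without Ocn-/- replicate 2. Leaving out 1 library moved that of Ocn+/- testes between -0.10 and 0.18, and that of Ocn+/- forebrain between 0.0230 and 0.25.

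**Figure D4:**
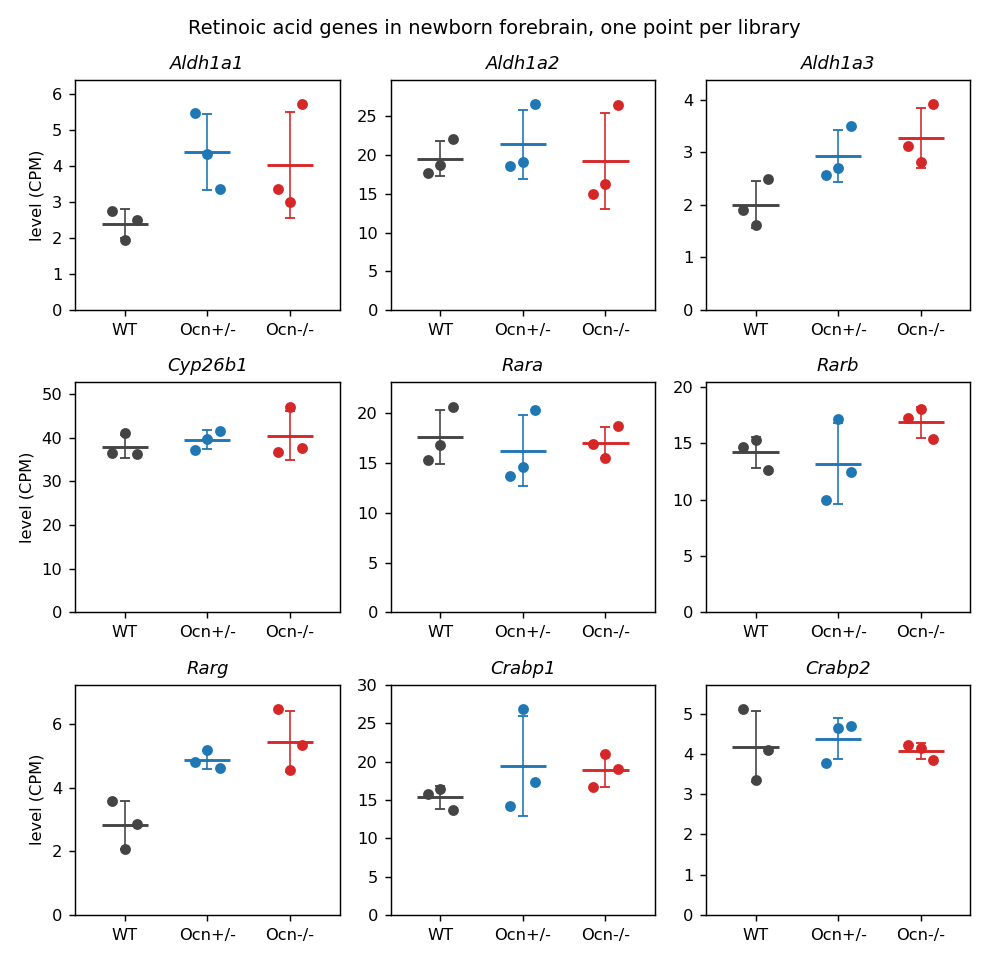
Level (CPM, linear axes from 0) of the 9 genes in each forebrain library, by genotype (3 libraries each); the horizontal line is the mean and the bar 1 SD. All 6 mutant libraries lie above the 3 WT libraries for Rarg, Aldh1a1 and Aldh1a3.

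Aldh1a1 responded differently in the 2 organs. The mean of both mutants against WT, taken in forebrain minus the same in testes, was 1.54 on the log2 scale (SE 0.262, adjusted p = 0.00303), and Aldh1a1 was the only one of the 9 genes called in this comparison, where 2.96% of all tested genes were. Its counts were far apart, at 5007 to 11058 counts in testes and 14 to 81 in forebrain. Aldh1a3 differed in the same direction by 1.19 (SE 0.341, adjusted p = 0.0569), and it was called without testes Ocn-/- replicate 3 (adjusted p = 0.0491) or testes Ocn+/- replicate 2 (0.0452), with the replicate number as a block (0.0303) and by DESeq2 (0.0358). It was called under 5 of 25 alternatives in all, and leaving out 1 library took the difference as low as 0.87 and the adjusted p as high as 0.357. Rarg, called in forebrain only, gave 0.46 (95% interval -0.25 to 1.17, adjusted p = 0.537), so its response was not shown to differ between the organs. The remaining 6 genes lay between -0.36 (Rara) and 0.44 (Crabp2), with adjusted p from 0.33 to 0.998.

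Beyond the 9 genes, 31 others that carry, store, convert or break down retinoids or partner the receptors were counted, of which 24 passed the filter in testes and 23 in forebrain. In testes 1 was called higher and 2 lower in each mutant genotype, where 8.25% (Ocn+/-) and 5.64% (Ocn-/-) of all tested genes were called, with medians over those tested of -0.17 in Ocn+/- and -0.15 in Ocn-/- pups. Leaving out 1 library moved these medians between -0.22 and -0.000766, the latter without WT replicate 2, and between -0.24 and -0.10. Stra6, the membrane receptor that takes up retinol from its plasma carrier, stood at 29.9 and 32.2 CPM in WT, 65.8, 50.9 and 64.4 CPM in Ocn+/- and 64.6, 47.9 and 75.2 CPM in Ocn-/- testes. It rose by 0.96 (SE 0.185, adjusted p = 0.00709) and 1.01 (SE 0.184, adjusted p = 0.00545), with no overlap between mutant and WT libraries. In forebrain it did not pass the test (-0.15 and -0.17), and the organs differed by -1.13 (SE 0.244, adjusted p = 0.0136). Without testes WT replicate 1 or 2 the adjusted p of Stra6 was 0.1 and 0.0779 in Ocn+/- and 0.0675 and 0.08 in Ocn-/- testes.

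Lrat and Rbp4, which store retinol as esters and carry it in plasma, were lower. Lrat stood at 5.96 and 6.94 CPM in WT, 2.92, 2.02 and 1.65 CPM in Ocn+/- and 4.39, 2.17 and 1.52 CPM in Ocn-/- testes, on 12 to 55 counts. It fell by 1.55 in Ocn+/- testes (SE 0.437, adjusted p = 0.0401), and its difference of -1.25 in Ocn-/- testes had an adjusted p of 0.0918. Rbp4 stood at 7.51 and 13.1 CPM in WT and 4.27, 5.10 and 5.56 CPM in Ocn-/- testes, and fell there by 1.05 (SE 0.297, adjusted p = 0.0472), a difference that was -0.58 without WT replicate 2. Both calls were fragile: that of Lrat was lost without any one of the WT or Ocn+/- libraries (adjusted p from 0.0647 to 0.249), and that of Rbp4 without any WT or Ocn-/- library (0.0537 to 0.603) and without Ocn+/- replicate 1 (0.0558) or 3 (0.0693).

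Adh1, an alcohol dehydrogenase that oxidizes retinol, stood at 216 and 250 CPM in WT, 167, 149 and 162 CPM in Ocn+/- and 135, 150 and 158 CPM in Ocn-/- testes. It fell by 0.55 (SE 0.122, adjusted p = 0.0143) and 0.66 (SE 0.122, adjusted p = 0.00582). Of 10 tested converting enzymes it was the only 1 called in either genotype, beside 8.25% (Ocn+/-) and 5.64% (Ocn-/-) of all tested genes. Without WT replicate 1 the adjusted p in Ocn+/- testes was 0.0726, and without WT replicate 2 it was 0.243 in Ocn+/- and 0.214 in Ocn-/- testes.

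The other CYP26 enzymes were scarce, and Cyp26c1 did not pass the count filter in either organ. Cyp26a1 stood at 0.130 and 0.757 CPM in WT, 1.86, 1.14 and 1.51 CPM in Ocn+/- and 1.66, 0.382 and 1.90 CPM in Ocn-/- testes, from 1 to 15 counts, and did not pass the test (adjusted p = 0.197 and 0.281). Of the other pathway genes in forebrain, 1 of 23 was called in Ocn-/- pups, beside 4.85% of all tested genes: Rxrg, a partner of the RARs, stood at 29.4, 29.8 and 25.6 CPM in WT, 28.2, 37.0 and 31.8 CPM in Ocn+/- and 36.1, 41.4 and 37.6 CPM in Ocn-/- pups. It rose by 0.43 in Ocn-/- forebrain (SE 0.121, adjusted p = 0.044), and the call was lost without any one of the WT or Ocn-/- libraries (adjusted p from 0.0545 to 0.157) and without Ocn+/- replicate 3 (0.0564).

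Of 14 genes known to be induced by retinoic acid, 11 were tested in testes and 7 in forebrain. In testes 1 was called higher in Ocn+/-, and 1 higher and 1 lower in Ocn-/- pups, beside 8.25% and 5.64% of all tested genes, and none was called in forebrain. The medians over those tested in forebrain were -0.07 in Ocn+/- pups and -0.21 in Ocn-/- pups, where all 7 log2 differences were below 0 and none was called, beside a median of 0.00606 over all tested genes. Leaving out 1 library moved the forebrain medians between -0.13 and -0.00759, the latter without WT replicate 3, and between -0.28 and -0.17. Those in testes were -0.07 in Ocn+/- and -0.38 in Ocn-/- pups. Meis1, Meis2, Nr2f1 and Hoxb2 were lowest in Ocn-/- replicate 3, without which the Ocn-/- testes median was -0.30, and it was -0.16 without WT replicate 2. The Ocn+/- testes median lay between -0.32 and 0.17 when 1 library was left out. Rarres1, at 16.97 and 12.5 CPM in WT, 25.5, 21.2 and 27.9 CPM in Ocn+/- and 20.5, 28.2 and 29.4 CPM in Ocn-/- testes, rose by 0.75 (adjusted p = 0.0428) and 0.82 (adjusted p = 0.0363). Rarres2, which encodes the secreted protein chemerin, stood at 46.5 and 56.5 CPM in WT and 32.8, 36.1 and 33.9 CPM in Ocn-/- testes and fell there by 0.59 (adjusted p = 0.0296). The call of Rarres1 was lost without either WT library (adjusted p from 0.0729 to 0.412 over both genotypes), in Ocn+/- testes also without Ocn+/- replicate 1 (0.109) or 3 (0.141), and in Ocn-/- testes also without Ocn-/- replicate 2 (0.0559) or 3 (0.088) or Ocn+/- replicate 3 (0.0509). That of Rarres2 was lost without either WT library (0.0705 and 0.442), Ocn-/- replicate 1 (0.0998) or 3 (0.0598). The meiotic genes Stra8 and Rec8, which germ cells switch on in response to retinoic acid, stood at 1.42 to 3.99 and 2.17 to 4.27 CPM over all testes libraries and were not called.

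**Figure D5:**
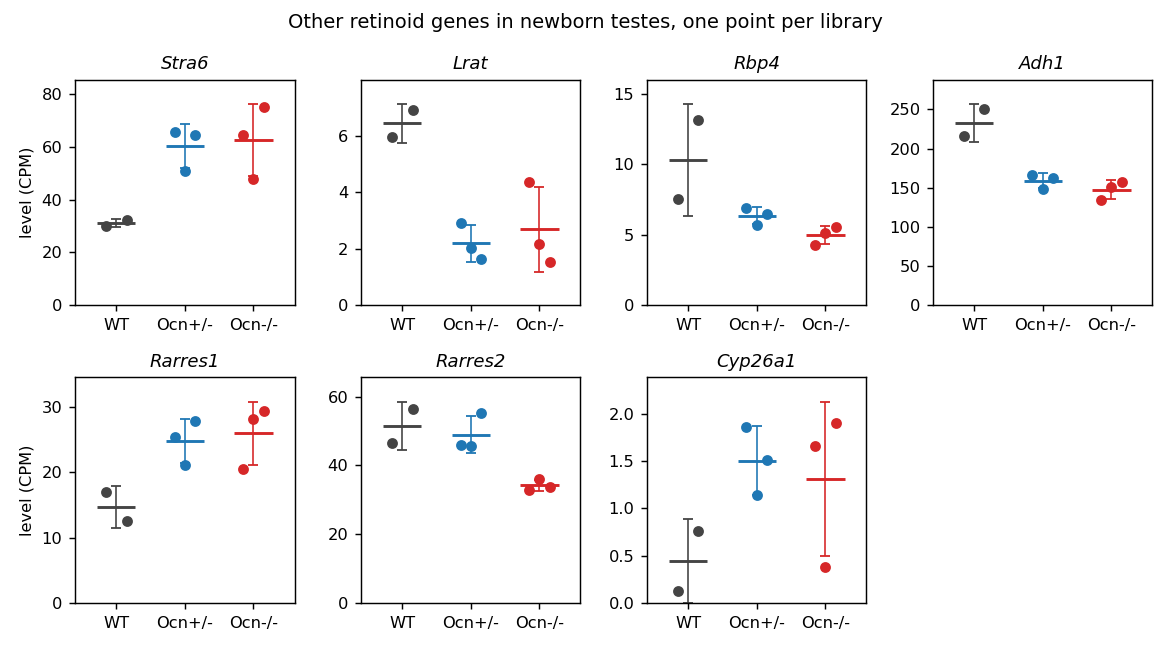
Level (CPM, linear axes from 0) in each testes library of 7 other retinoid genes, by genotype; the horizontal line is the mean and the bar 1 SD. Stra6 and Rarres1 lie higher and Adh1 and Lrat lower in all 6 mutant libraries than in both WT libraries.

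The genes whose levels followed those of Aldh1a1 most closely over the 8 testes libraries were Peg10 (Pearson r = 0.9914 of log2 CPM), Hao2 (0.9875), Lsm14a (0.9868), Cldnd1 (0.9798) and Elovl5 (0.9773), among 16349 genes compared. Those with the most opposite pattern were Cd68 (-0.9785), Atp13a2 (-0.9772), Tmem181b-ps (-0.9767), Cdh24 (-0.9759) and Slc12a9 (-0.9759). For Rarg over the 9 forebrain libraries the closest of 16062 genes were Wdr20 (0.9764), Fbxo42 (0.9687), Pigw (0.962), Klhl12 (0.9617) and Ggnbp2 (0.9573), and the most opposite were Tmem169 (-0.9665), Ndrg2 (-0.9636), Stom (-0.9622), Fam149b (-0.9588) and Igfbp3 (-0.9572). The libraries share their genotypes and scaling, so these values describe the samples and carry no test.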

How the data were processed

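RNA of testes (8 libraries) and forebrain (9 libraries) was poly-A selected and sequenced by the authors, who trimmed reads with Trim Galore 0.6.6, aligned them to GRCm39 with STAR 2.7.8a and deposited RSEM 1.3.3 expected counts per gene, not normalized. The strand setting and annotation release are not given in the sources used here. Expected counts split reads shared between similar genes, so 2 of the 9 genes held values that were not whole. Of 55359 identifiers, 54749 matched GENCODE mouse release 39 on GRCm39. Counts were rounded, filtered by filterByExpr, scaled by TMM and tested in edgeR 4.0.16 (R 4.3.3) with the robust quasi-likelihood test, in 1 fit per organ over its 3 genotypes and 1 fit of all 17 libraries for comparisons between organs. The fit of each organ was tested on simulated data: of genes changed by a known 2-fold in both mutants, 75.5% and 71.4% of 98 were called in simulated Ocn+/- and Ocn-/- against WT testes and 92.9% and 90.9% of 99 in forebrain (16087 and 16006 genes tested). The simulation gave all genes of an organ the same spread, changed none of the scarcest genes and held no library that stood apart. Its shares can therefore be higher than those for the scarce genes described here. Likeness used log2 CPM with a prior count of 2. All 9 genes are described in each comparison, and other pathway genes where they passed an adjusted p of 0.05. Bulk depth limits scarce genes, and SE is the log2 fold change divided by the root of the quasi-likelihood F. Alternatives were other scalings, DESeq2 1.42.0, other filters, a replicate block, a fit of 2 genotypes and leaving out each library. Some genes of the lists are not reported here and are left out of the counts over lists. The members and lists were chosen with earlier results of these data known.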

Additional observations from a re-analysis of the deposited data

Results flagged for a closer look

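The response to genotype (the mean of Ocn+/- and Ocn-/- minus WT, on the log2 scale) was compared between forebrain and testes in an interaction test of all 17 libraries with edgeR. It differed for 1 of the 9 genes and for 1 of 37 other pathway and retinoic acid induced genes tested, where 2.96% of all tested genes differed. Aldh1a1 gave 1.54 (SE 0.262, adjusted p = 0.00303), being lower than WT in 6 of 6 mutant testes libraries and higher than WT in 6 of 6 mutant forebrain libraries. Stra6 gave -1.13 (SE 0.244, adjusted p = 0.0136), higher than WT in 6 of 6 mutant testes libraries, and without testes WT replicate 1 or 2 its adjusted p was 0.087 and 0.076.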

How the results depend on the processing

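Over 60 values with 1084 alternatives, 988 kept their direction and side of the threshold, 61 lost the call, 6 gained one and 29 changed sign. The fall of Aldh1a1 in Ocn+/- testes and its difference between the organs were called under every alternative run. The number of the 9 genes called became 0 for Ocn-/- against WT in testes with the replicate block (Aldh1a1 -0.51, adjusted p = 0.0531), 0 for Ocn-/- against WT in forebrain in the fit of only those 2 genotypes (Rarg 0.92, adjusted p = 0.0606), 1 for Ocn-/- against Ocn+/- testes with DESeq2 (Aldh1a1 0.42, adjusted p = 0.0487), and 2 for the difference between organs with DESeq2, with at least 10 counts in every library or with the replicate block (Aldh1a1 and Aldh1a3). Leaving out 1 library gave 0 to 1 for Ocn-/- against WT in testes and in forebrain and 1 to 2 for the difference between organs. Replicate numbers did not meet the bar for paired libraries (every correlation over 0.1): deviations of same-numbered libraries correlated at -0.0937 to 0.0871 in testes (7 pairs), -0.0366 to 0.1465 in forebrain (9 pairs) and -0.1127 to 0.1408 between organs (24 pairs). The 8 pairs of the same genotype and number in both organs gave 0.0082 to 0.1408, 3 of them over 0.1, against -0.1367 to 0.0343 for 16 pairs of the same genotype and another number, and 7 testes libraries were closest to the forebrain library of their own number. The deviations of a group sum to 0, so high values for pairs of the same number force lower ones for the others, and the 2 sets of pairs are not independent. The labels do not say whether both organs came from the same pups, and the correlations are a hint only. A block of genotype and number shared by the organs (chosen after seeing the data) kept the calls of 8 of the 9 genes between organs and of Aldh1a1 (1.56, adjusted p = 0.0158) and Stra6 (-1.04, 0.0318) for the difference between organs. With the block of replicate number alone, Lrat (adjusted p = 0.0852) and Rarres1 (0.0917) in Ocn+/- testes and Rbp4 (0.0677) and Rarres1 (0.0725) in Ocn-/- testes lost their calls; the block ended no other call reported here. Other scalings or the fit of 2 genotypes ended the calls of Rbp4 (0.0572 and 0.0655) and Rxrg (0.0526).

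The sign changed only for small, uncalled differences. Between the organs Crabp2 was 0.0191 with library size alone. With the replicate block in testes Ocn+/-, Cyp26b1 was -0.0296 and Crabp2 0.23. In Ocn-/- forebrain with library size alone, Aldh1a2 was 0.0949, Rara 0.0775 and Crabp2 0.0382, and without a filter Aldh1a2 was 0.0075. Leaving out 1 library gave, in Ocn+/- testes, Aldh1a2 -0.17 to 0.31, Cyp26b1 -0.10 to 0.16 and Rarb -0.10 to 0.18; in Ocn-/- testes, Rarg -0.18 to 0.37 and Crabp1 -0.0847 to 0.12; in Ocn+/- forebrain, Aldh1a2 -0.0362 to 0.24, Rara -0.29 to 0.0221, Rarb -0.34 to 0.0480 and Crabp2 -0.10 to 0.25; in Ocn-/- forebrain, Aldh1a2 -0.30 to 0.14, Cyp26b1 -0.0268 to 0.16, Rara -0.13 to 0.0912 and Crabp2 -0.20 to 0.15; and between the mutants in forebrain, Aldh1a1 -0.47 to 0.0670. The cause was not tested.

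Counts over all genes moved more. In Ocn+/- testes 1350 genes became 2149 without a filter, 2084 in the fit of 2 genotypes and 118 without WT replicate 2; in Ocn-/- testes 922 became 1763 without a filter, 85 without WT replicate 2 and 1559 without Ocn-/- replicate 2. In Ocn-/- against Ocn+/- testes 0 became 76 with DESeq2 and 252 without a filter. In forebrain 625 became 1265 without a filter, 369 with library size alone and 183 without WT replicate 3 in Ocn+/-, and 780 became 1502 without a filter and 189 without WT replicate 3 in Ocn-/- pups, and 1 became 5 with DESeq2 and 34 without a filter between the mutants. The 526 genes of the difference between organs became 1027 with DESeq2, 1023 without a filter and 93 without testes WT replicate 2. With library size alone the share of calls that were higher went from 47.2% to 68.1% and from 45.1% to 65.2% in Ocn+/- and Ocn-/- testes, from 31% to 47.7% and from 37.2% to 64.5% in forebrain, and from 52.8% to 63% between organs, where all genes shifted by 0.316 (log2), or by 0.147 with upper quartile scaling.

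Genes under 100 counts in every library of an organ (Rarb, Crabp1 and Crabp2 in testes, and Aldh1a1, Aldh1a3, Rarg and Crabp2 in forebrain) and Rarg in testes (40 to 106 counts) are limited by depth.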
